A study of Mus musculus with 6 samples.

Results

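Chromatin accessibility was examined at 38 mouse genes of the red cell and platelet lineages, of which 21 are erythroid and 17 megakaryocytic. They were chosen by name, as genes that serve in these lineages, out of 21938 protein-coding genes in the annotation. A region was placed at a gene when it overlapped the gene body, extended by 25 kb on each side, and 25 of the 10016 regions in the deposited table met this rule. ATAC-seq, in which the Tn5 transposase cuts open DNA and marks it for sequencing, was applied to cell lines from mouse fetal liver that the fusion oncogene MLL-ENL had transformed and that were grown with IL-3. WT cells are labelled wild-type, with no vector named, and per the study's methods carried intact floxed alleles of Cebpa and Cebpb. The dKO cells were Cebpa KO and Cebpb KO, arose as clones after Cre treatment, and expressed GFP. The remaining group, dKO-LAP*, was not analysed here. Each group had 2 libraries, so WT and dKO differed in vector and clonal origin as well as in genotype, and these cannot be told apart.

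Red cells and platelets arise from a shared progenitor under GATA1, TAL1 and FLI1 or KLF1, whereas C/EBP factors direct the granulocyte and monocyte branch. Erythroblasts make haem and globin, import iron through the transferrin receptor and build a membrane skeleton of spectrin and ankyrin. Megakaryocytes shed platelets, which bind collagen and von Willebrand factor through glycoproteins and fibrinogen through the integrin αIIbβ3.

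Sequences are shown for the start site with the largest gain and for the promoter of the thrombin receptor. Others are from a pair of intronic Ank1 regions that went opposite ways, and from higher Mylk and Plek regions that hold an AP-1 core. Each is a 200 bp stretch on the + strand of GRCm38.p6, the assembly of mm10, with the matched motif letters in capitals.
Itga2b 5′ end, chr11:102470097-102470296: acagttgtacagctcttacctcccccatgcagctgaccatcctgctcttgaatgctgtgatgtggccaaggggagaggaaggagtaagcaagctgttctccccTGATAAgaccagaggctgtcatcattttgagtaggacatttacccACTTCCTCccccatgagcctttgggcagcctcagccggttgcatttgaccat
F2r promoter, chr13:95618488-95618687: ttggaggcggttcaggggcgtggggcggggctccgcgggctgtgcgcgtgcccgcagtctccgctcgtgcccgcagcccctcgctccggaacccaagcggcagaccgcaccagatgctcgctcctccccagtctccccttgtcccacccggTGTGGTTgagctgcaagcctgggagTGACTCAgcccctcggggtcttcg
Ank1 lower region, chr8:23028453-23028652: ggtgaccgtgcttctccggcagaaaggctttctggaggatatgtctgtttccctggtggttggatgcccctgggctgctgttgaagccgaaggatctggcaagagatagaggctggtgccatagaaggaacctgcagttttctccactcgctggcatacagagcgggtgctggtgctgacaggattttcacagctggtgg
Ank1 higher region, chr8:23038515-23038714: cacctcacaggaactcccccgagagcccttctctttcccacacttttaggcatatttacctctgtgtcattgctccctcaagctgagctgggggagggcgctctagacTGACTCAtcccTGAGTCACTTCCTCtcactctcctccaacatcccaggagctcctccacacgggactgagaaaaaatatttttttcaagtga
Mylk internal start site, chr16:34784721-34784920: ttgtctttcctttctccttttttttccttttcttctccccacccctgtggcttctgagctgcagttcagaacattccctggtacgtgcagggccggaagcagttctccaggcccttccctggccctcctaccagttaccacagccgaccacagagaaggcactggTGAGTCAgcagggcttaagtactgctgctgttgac
Mylk coding exon region, chr16:34880388-34880587: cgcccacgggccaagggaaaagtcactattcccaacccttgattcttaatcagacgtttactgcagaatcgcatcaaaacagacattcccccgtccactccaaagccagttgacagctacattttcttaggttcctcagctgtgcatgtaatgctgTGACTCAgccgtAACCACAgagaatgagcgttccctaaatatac
Plek distal region, chr11:16950107-16950306: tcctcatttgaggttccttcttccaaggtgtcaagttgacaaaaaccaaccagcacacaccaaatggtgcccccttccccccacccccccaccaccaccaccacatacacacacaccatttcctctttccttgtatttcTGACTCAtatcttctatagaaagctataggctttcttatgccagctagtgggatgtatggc
Plek intron, chr11:17001054-17001253: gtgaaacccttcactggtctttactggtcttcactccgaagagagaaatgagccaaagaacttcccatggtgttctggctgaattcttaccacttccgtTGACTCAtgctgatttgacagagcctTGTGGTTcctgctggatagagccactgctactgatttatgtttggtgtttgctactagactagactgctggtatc
The Itga2b stretch, read against the direction of the gene, holds TGATAA from base 104, which is one form of the GATA factor site, and ACTTCCTC from base 149, the reverse complement of the PU.1 site. The F2r stretch lies directly upstream of the gene, which also runs against it, and holds a RUNX match (TGTGGTT) from base 152 and TGACTCA from base 177. In the Ank1 pair, the lower stretch has no match, and the higher one has TGACTCA from base 109, TGAGTCA from base 120 and an overlapping PU.1 match from base 126. The Mylk exon region and the Plek intron also carry a RUNX match beside the AP-1 core.

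Of the 25 regions at these genes, 18 were higher in dKO and 7 were lower, against 60.3% higher and 39.7% lower over all listed regions. Higher regions thus made up 72.0%, and 62.5% without chromosome 16, against 59.6% of all listed regions on the remaining chromosomes. Of the 38 genes, 25 had no listed region. The median log2 change (dKO minus WT) was 1.12, against 0.98 over all listed regions. Levels are given as the log2 mean of normalised reads per group, and at these genes the median level was 5.43 in WT and 6.09 in dKO. The log2 change reached 1 or more in 16 higher regions and -1 or less in 6 lower regions, while 49.6% and 35.9% of all listed regions did so. All listed regions had passed the corrected P-value cutoff of 0.05 of the study, no value per library was given, and the differences below are therefore differences of deposited means without an error of their own. In these bulk libraries, a change in the share of cells with an open region and a change in openness per cell cannot be told apart.

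The genes had listed regions about as often as others. A region was found at 13 of the 38 genes, or 34.2%, whereas 34.9% of protein-coding genes had one in a window of the same kind. Within 1 kb of a start site, 5 of the 38 genes had a region, or 13.2%, against 6.41% of protein-coding genes. Long genes have long windows, and across quartiles of gene length from short to long 2 of 10, 4 of 12, 3 of 9 and 4 of 7 of these genes had a region, against 21.8%, 29.4%, 37.1% and 51.4% of protein-coding genes. Of the 13 genes, 7 had higher regions alone, 4 had lower regions alone, and Ank1 and Tfrc had both. Matching counts over all protein-coding genes are not given.

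**Figure D1:**
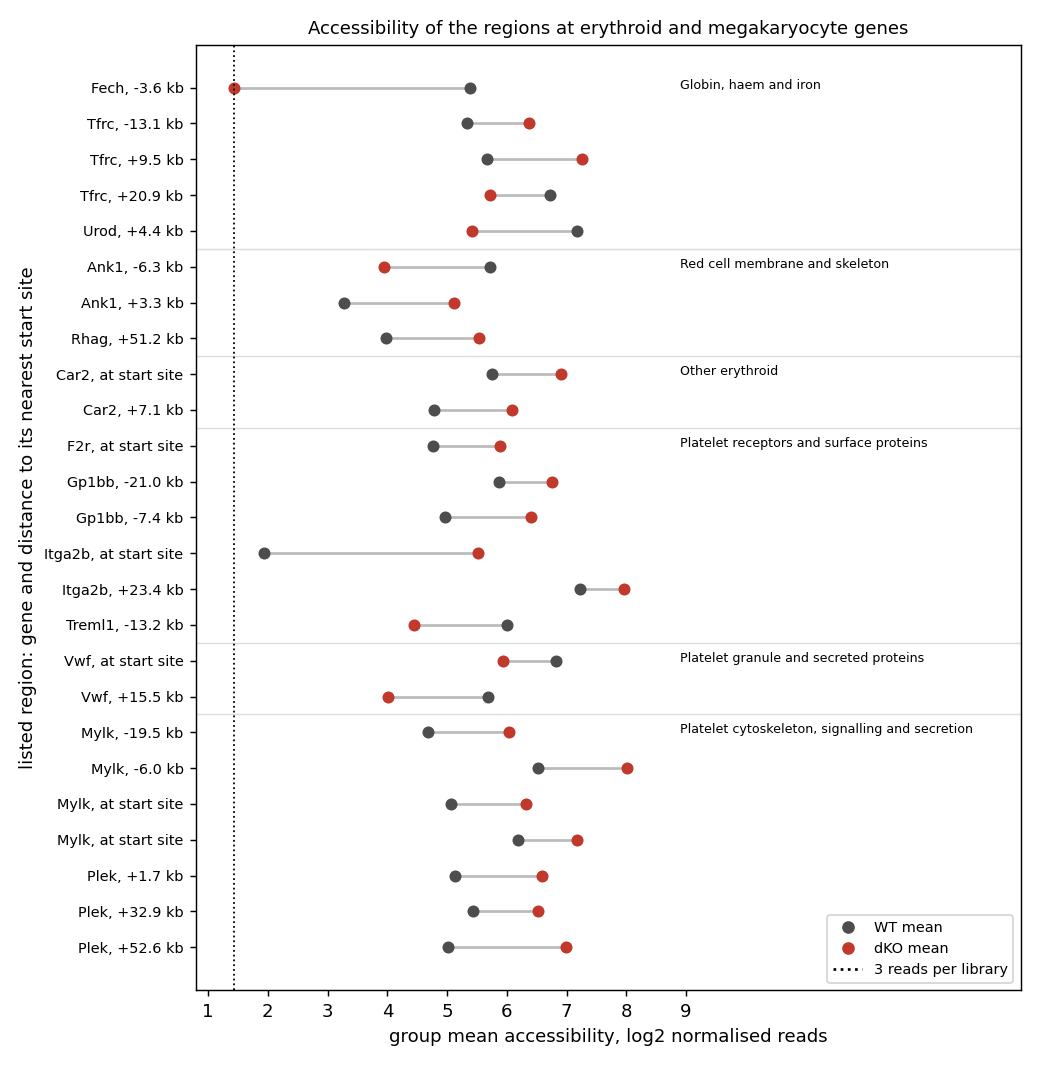
Group mean accessibility (x axis, log2 normalised reads) in WT (grey) and dKO (red) at each of the 25 regions, labelled by gene and distance to the nearest start site of that gene and grouped by role, with a dotted line at the level of 3 reads per library. The dKO mean lies to the right of the WT mean at 18 regions, the widest gain being that at the Itga2b start site (1.93 to 5.52) and the widest loss that in Fech (5.38 to 1.43).

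Regions of both lineages went in both directions. Erythroid genes had 10 regions, 6 higher and 4 lower, at 6 of 21 genes. Megakaryocyte genes had 15 regions, 12 higher and 3 lower, at 7 of 17 genes. Higher regions thus made up 60% and 80%, against 60.3% over all listed regions. Without chromosome 16, which held 6 of the 12 higher megakaryocyte regions, the shares were 57.1% and 66.7%, against 59.6% of all listed regions on the other chromosomes. Median changes were nearly the same, at 1.10 and 1.12, and the difference between the lineages was not tested. When the median change of all listed regions was subtracted from each value, higher regions made up 66.7% at megakaryocyte genes in place of 80%, and the share at erythroid genes stayed at 60%, against 50% of all listed regions after the same subtraction.

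The globin, haem and iron genes had 5 regions, 2 higher and 3 lower. Fech encodes ferrochelatase, which inserts iron into protoporphyrin to form haem, and its intronic region (chr18:64467962-64468309) went from 5.38 in WT to 1.43 in dKO. The dKO mean was at the level of 3 reads in each library. Accessibility was 15.4-fold lower, a value that so few reads leave uncertain. This was the largest loss at the 38 genes, and it lay 20741 bp inside the gene from the nearest start of a coding transcript. Urod encodes uroporphyrinogen decarboxylase, an earlier enzyme of the same pathway. A region past its end (chr4:116986814-116987240), which overlaps Zswim5 and not Urod itself, went from 7.18 to 5.42, a change of -1.76.

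Iron uptake was represented by Tfrc, the transferrin receptor, whose surroundings changed both ways. A region 13146 bp upstream (chr16:32595006-32595774) was higher in dKO, at 6.38 against 5.34, a change of 1.04. A region between Tfrc and its neighbour Tnk2 (chr16:32633984-32634579) was also higher, at 7.26 against 5.67. The last region (chr16:32645339-32645864) lay within Tnk2, 380 bp from a start site of that gene, and was lower, at 5.72 against 6.73. For the second and the last, Tnk2 and not Tfrc has the nearest coding start site, and no region covered the Tfrc promoter itself.

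Among genes of the red cell membrane, Ank1 alone carried an opposite pair. Ank1 encodes ankyrin, which ties the spectrin network to the membrane. Its intronic region at chr8:23028304-23028800 went from 5.72 in WT to 3.94 in dKO, a change of -1.78. The other intronic region, at chr8:23038484-23038744, went from 3.28 to 5.11, a change of 1.83. The 2 regions stood on either side of a cluster of internal start sites of Ank1, each measured from the nearest of these, at -6299 and 3253 bp, and their folds were nearly equal and opposite (3.43-fold lower and 3.56-fold higher). The higher member of the pair holds the AP-1 cores shown above.

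Rhag, which encodes a membrane glycoprotein of the Rh complex, had 1 higher region (chr17:40862373-40862871), at 5.54 against 3.98. It lay 21619 bp beyond the gene body, nearest to the start site of 9130008F23Rik. Of all 25 regions this was the farthest from its gene body. The next regions outside the 25 kb limit were at 26022 bp from Gp1bb, at 6.23 in dKO against 7.09 in WT, and at 27756 bp from Sptb, at 5.55 against 3.41.

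Car2, which encodes the carbonic anhydrase that red cells share with several other tissues, was higher at its start site and inside the gene. The start site region (chr3:14886044-14887054) had a log2 mean of 6.91 in dKO against 5.75 in WT, a change of 1.16. An intronic region (chr3:14893746-14894077) had 6.09 against 4.78, a change of 1.31. Car2 was the only erythroid gene of the 21 with a listed region over its own start site. Its neighbour Car1, an erythroid carbonic anhydrase, had none in its window.

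Of the platelet surface proteins, Itga2b stood farthest apart. Itga2b encodes integrin αIIb, or CD41, the partner of β3 in the fibrinogen receptor and a marker of the megakaryocyte lineage. The region over its 5′ end (chr11:102470034-102470359) stood at 1.93 in WT, or 3.81 normalised reads, and at 5.52 in dKO, or 45.9 normalised reads. The change of 3.59, or 12-fold, was the largest gain at the 38 genes. The WT mean was above the level of 3 reads per library, which corresponds to 1.43. A start site of Itga2b lies within the region, and the nearest start of a coding transcript lies 151 bp from its edge. A second region in the Itga2b window (chr11:102432105-102432785) covered the start site of Grn, the granulin gene, and had 7.96 against 7.23.

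F2r encodes the thrombin receptor PAR1, and its start site region (chr13:95618300-95618803) was higher in dKO, at 5.88 against 4.76, a change of 1.12. Gp1bb encodes the β chain of glycoprotein Ib, part of the receptor for von Willebrand factor. Both of its regions lay upstream and were higher, at 6.41 against 4.97 (chr16:18629816-18630260) and at 6.75 against 5.87 (chr16:18643450-18643979). The nearer of them covered the start site of the adjoining gene Sept5. Treml1, which encodes a receptor stored in platelet granules, had the only lower region among the surface proteins. That region (chr17:48346025-48346677) covered the start site of the myeloid receptor gene Trem2 and had 4.44 against 6.00.

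Vwf, the gene of von Willebrand factor, which bridges platelets and the injured vessel wall, had 2 lower regions and no higher one. The first (chr6:125603180-125603620) covered an internal start site, 56406 bp into the gene, and had a log2 mean of 5.93 in dKO against 6.83 in WT. This was the only lower region among the 6 that lay within 1 kb of a start site of their gene. The other region (chr6:125701264-125701668) lay beyond the gene within Ano2 and had 4.01 against 5.68, a change of -1.67.

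Mylk and Plek together held 7 regions, and all of them were higher in dKO. Mylk encodes the myosin light chain kinase, which drives actomyosin contraction and is widely expressed. Its region upstream of the gene (chr16:34738683-34739233) had 8.02 in dKO against 6.52 in WT. The region over the 5′ end (chr16:34744968-34745643) had 7.18 against 6.18, and that over a coding start site farther in (chr16:34784688-34785054) had 6.32 against 5.06. A region over a coding exon (chr16:34880242-34880733) had 6.04 against 4.68. The 4 changes at Mylk thus lay between 1.00 and 1.50, with start sites and inner regions alike.

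Plek encodes pleckstrin, the main protein kinase C substrate of platelets, which leukocytes also express. The distal region near Fbxo48 (chr11:16950030-16950382), 20824 bp beyond the gene body, had 6.99 in dKO against 5.02 in WT. This change of 1.97 was the second largest gain of the 25. The region at chr11:16969689-16970091 had 6.52 against 5.43, and an intronic region (chr11:17001010-17001296) had 6.59 against 5.14.

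**Figure D2:**
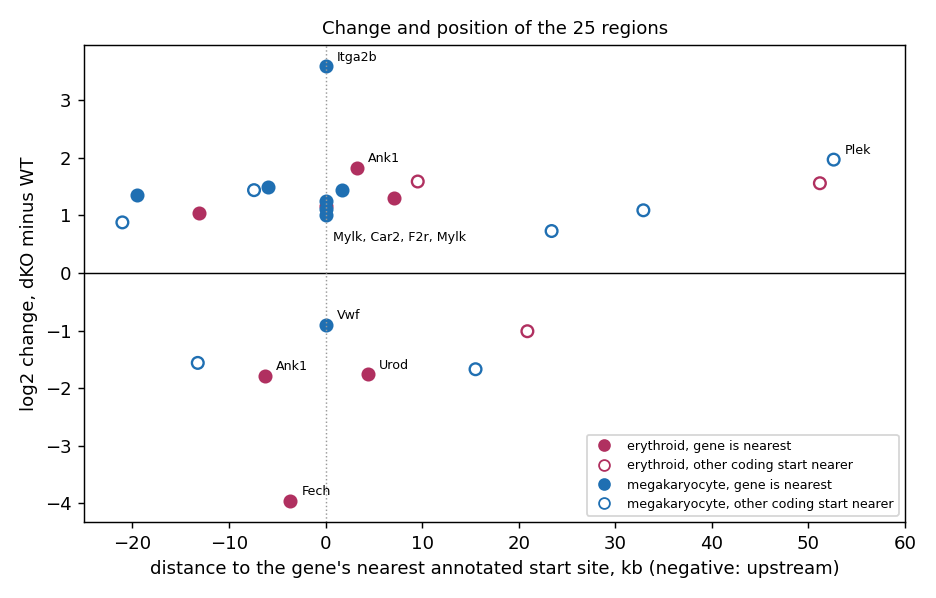
Log2 change (y axis, dKO minus WT) of the 25 regions against the distance to the nearest annotated start site of their gene (x axis, kb, negative upstream), with erythroid genes in crimson, megakaryocyte genes in blue, and open circles where another coding gene's start site is nearer. Of the 6 regions within 1 kb of a start site 5 are higher, and the open circles include 7 higher and 3 lower regions. Matching shares over all listed regions are not given.

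By position, 6 regions lay at a start site of their gene, 5 in introns, 1 over a coding exon, 5 upstream and 8 downstream. Higher regions numbered 5 at start sites, 3 in introns, 1 over the exon, 4 upstream and 5 downstream. In 15 regions the nearest coding start site was that of the erythroid or megakaryocyte gene, and 11 of these were higher. In the other 10 regions another gene's start site was nearer, and 7 of these were higher. Shares over all listed regions by position or nearest gene are not given, so these counts have no matched background. Tfrc, Mylk and Gp1bb lie on chromosome 16, where 73.0% of all 463 listed regions were higher, against 59.6% on the other chromosomes. They supplied 9 of the 25 regions, of which 8 were higher. At the genes on other chromosomes 10 regions were higher and 6 lower, or 62.5% higher. The part of chromosome 16 in the result was not tested.

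The remaining 25 genes had no listed region in their windows. Among the factors these were Klf1, the erythroid activator of globin and membrane genes, and Nfe2, a factor of platelet formation counted here as erythroid. Among globin, haem and iron genes they were Hba-a1 and Hbb-bt, which encode adult globin chains, Alas2, which starts erythroid haem synthesis, and the mitochondrial carriers Slc25a37 and Slc25a38. The membrane and skeleton genes Slc4a1 (the anion exchanger), Epb41, Sptb, Ermap and Kel had none, nor did Car1, Hemgn and Trim10. Of the platelet genes, none was listed at Gp1ba, Gp5 and Gp9, partners of Gp1bb in one receptor complex, at the collagen receptor gene Gp6, at Clec1b, at the granule protein genes Pf4, Ppbp and Thbs1, at Tubb1, the platelet β-tubulin, and at Rab27b, which acts in granule secretion.

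For these genes the nearest listed region lay between 27.8 and 552 kb away, with a median of 80.6 kb, and within 50 kb at 5 of the 25. It was higher in dKO for 13 genes and lower for 12, while 60.3% of all listed regions were higher. At the α-globin cluster, the nearest region to Hba-a1, near Hbq1a at 31.6 kb, was lower, at 2.56 in dKO against 5.15 in WT. The nearest region to Klf1 was 53.9 kb away. The β-globin gene Hbb-bt had the longest distance. The table lists changed regions alone, so these genes may have been open in both groups, closed in both, or changed by too little to be listed.

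**Figure D3:**
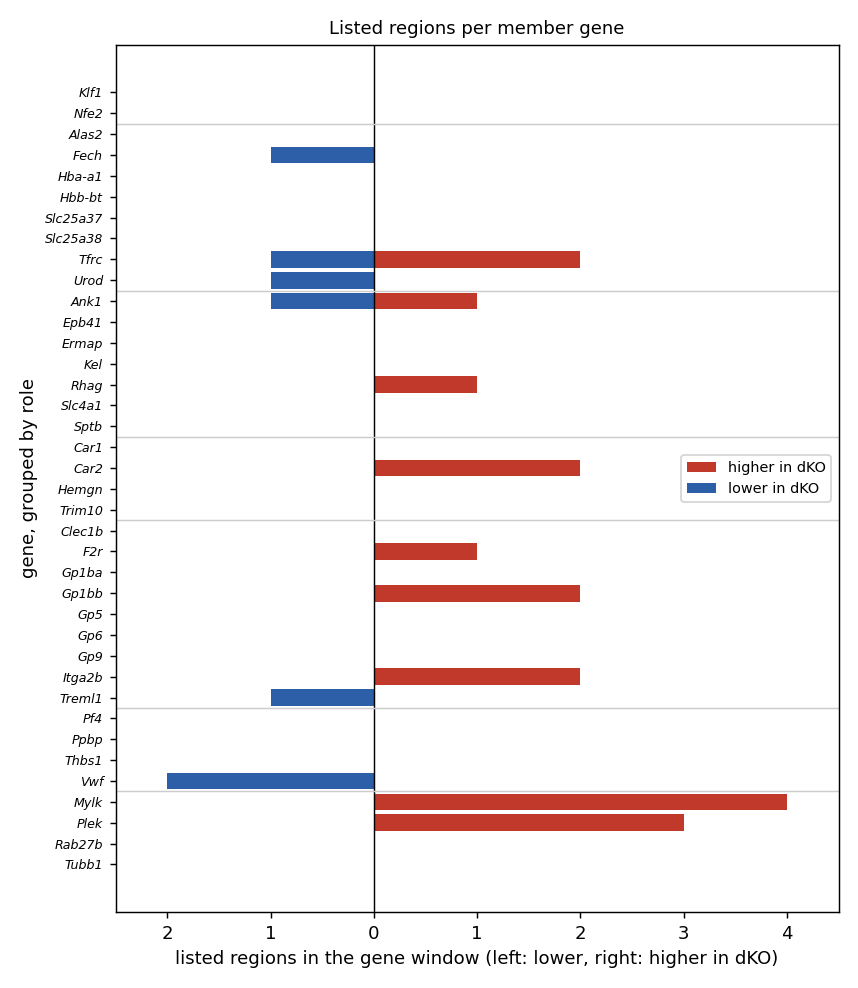
Number of listed regions in the window of each of the 38 genes (x axis), drawn to the right when higher in dKO (red) and to the left when lower (blue), with genes grouped by role on the y axis. Mylk (4) and Plek (3) have the most higher regions, Vwf has 2 lower ones, and 25 genes have none.

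Further genes of both lineages were taken from lists that hold none of the 38. These lists, like the 38 genes, were chosen with earlier results of these data known. Of 37 erythroid genes in the annotation 17, or 45.9%, had a region, against 34.9% of protein-coding genes, and 11 of their 27 regions were higher and 16 lower, with a median change of -1.45. Of 34 megakaryocyte genes 17, or 50%, had a region, against the same 34.9%. Neither list was split by gene length, so these shares are not matched for window length. Of the 39 megakaryocyte regions 32 were higher and 7 lower, with a median change of 1.22. Higher regions thus made up 40.7% and 82.1% in the erythroid and the megakaryocyte list, against 60.3% over all listed regions, a difference that was not tested. After subtraction of the median change of all listed regions the shares were 40.7% and 61.5%, against 50%. Fyb alone held 9 of the 39 megakaryocyte regions. By gene, 7 erythroid genes had higher regions alone, 9 had lower ones alone and 1 had both. For the megakaryocyte genes these counts were 13, 3 and 1, and no matching counts over all protein-coding genes are given.

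Regions within 1 kb of a start site were found at 4 of the 37 genes of the erythroid list, while 6.41% of protein-coding genes had one. Tfr2, which encodes the second transferrin receptor, had 5.06 in dKO against 3.19 in WT. Dmtn, the gene of dematin, which bundles actin in the red cell skeleton, had 5.63 against 7.45 at an internal start. Slc11a2, the iron transporter gene, had 3.95 against 5.44 at an internal start, and Gypc, the glycophorin C gene, had 5.97 against 6.99.

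At 5 of the 34 megakaryocyte genes a region lay within 1 kb of a start site, against the same 6.41%. F2rl2, which encodes the thrombin receptor PAR3 and lies close to F2r on chromosome 13, had 5.71 in dKO against 3.59 in WT. Tbxas1, the thromboxane synthase gene, had 5.34 against 3.66 at an internal start, and Fyb, which encodes an adaptor of integrin activation, had 7.05 against 5.67. The other 2 were lower. Pear1, a platelet receptor gene, had 5.38 against 6.64 at an internal start, and Gnaz, which encodes the G protein αz, had 7.49 against 8.37.

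**Figure D4:**
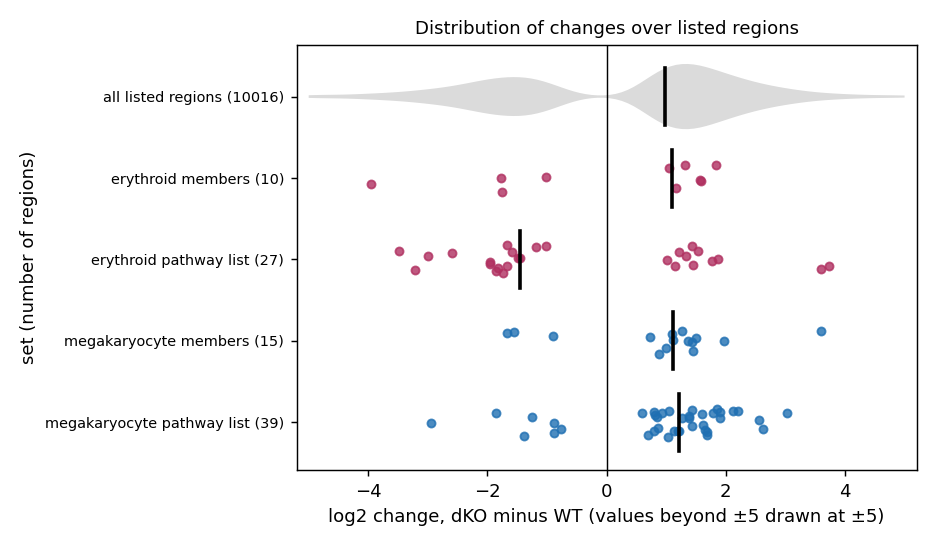
Log2 change (x axis, dKO minus WT) of all 10016 listed regions (grey density, values beyond the axis drawn at its ends) and of each region of the 38 genes and of the wider lists (points, spread vertically for legibility), with black bars at the medians. The erythroid list has its median at -1.45, while the other sets lie between 0.98 and 1.22.

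Sequence motifs were counted in the central 200 bp of each region, on both strands, and a match is a description of letters only. The AGATAA form of the site of GATA factors was present in 2 of the 25 regions (8%), against 7.52% of all listed regions. These were the Plek region at chr11:16969689-16970091 and the lower Tfrc region. The form TGATAA, which was searched after the sequences had been read, was present in 3 regions (12%), at Itga2b, Mylk and Plek, against 6.10% of all. CCACACCC, the site of KLF factors, was in none of the 25 and in 3.53% of all.

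TGACTCA, the core shared by AP-1 and NF-E2, was present in 5 regions (20%), against 17.9% of all listed regions. All 5 were higher in dKO, at Ank1, at 2 regions each of Mylk and Plek, and made up 27.8% of the 18 higher regions, close to the 26.7% of all higher regions and above the 4.67% of all lower ones. The RUNX letters AACCACA were present in 6 regions (24.0%), against 11.9% of all. These 6 were all at megakaryocyte genes, namely 2 at Mylk and 1 each at F2r, Gp1bb, Plek and Vwf. The Mylk exon and the Plek intron held both motifs.

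The C/EBP consensus, TTGCNNAA or TTACNNAA, was present in 3 regions (12%), against 28.4% of all listed regions. It was present in 2 of the 7 lower regions, at Fech and Treml1, and in 1 of the 18 higher regions, upstream of Tfrc, while it was found in 40.8% of all lower and 20.1% of all higher regions. GAGGAAGT, bound by PU.1, was present in 3 regions (12%), against 9.22% of all, at the Itga2b start site, the higher Ank1 region and the internal Vwf start site. None of the motifs was found in 9 regions (36.0%), against 38.8% of all. The TGACTCA of the F2r promoter shown above lies outside the central window and is not in these counts.

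The deleted genes served as a check of the labels. Over Cebpa the level went from 9.99 in WT to -0.15 in dKO, which is the lowest value in the table and corresponds to 1 read in each library. Regions over Cebpb had 8.60 against 3.37 and 7.38 against -0.15. The table lists changed regions only, so accessibility at marker genes of the labelled cell type could not be checked where it did not change. The labels give an average of 25000000 reads per sample, and the depth of single libraries was not part of the table.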

How the data were processed

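ATAC-seq libraries of WT and dKO cells, 2 per group, were preprocessed by the authors with PiGx, aligned to mm10 with Bowtie 2 and subjected to peak calling with MACS2. Regions were compared with DiffBind 2.14.0 at a corrected P-value of 0.05. Handling of duplicates and of the Tn5 offset was not given in the sources used here. The authors deposited log2 group means of normalised reads for regions past that cutoff alone. Both processed files held the same table, without dKO-LAP*. Columns holding the authors' mean over both groups, fold changes, p-values and FDR were not used. Nothing states that replicates were separate cultures.

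Changes were computed as the dKO minus the WT log2 mean (Python 3.11.15, pandas 2.3.3). Regions were placed with GENCODE M21, and motifs were read from GRCm38.p6. Assignment was tested on simulated regions. The 38 genes and the lists were chosen with earlier results of these data known. All genes with regions are named. From the wider lists, genes with a region within 1 kb of a start site are named, with up to 5 values each; the closing section names, by a rule set after their values were seen, the genes of the 10 regions with the largest absolute change. Folds with a mean at or under 3 reads per library were computed with that level in its place, and counting error was not covered.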

Additional observations from a re-analysis of the deposited data

How the results depend on the processing

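No test was run, since no values per library were given and the deposited p-values were not used, and 7 results were followed under 9 other settings, of which 2 (1 region per gene, and without chromosome 16) were added after the data had been seen. Over these settings the share of higher regions ranged from 62.5% to 76.5%, from 57.1% to 66.7% at erythroid genes and from 66.7% to 90.0% at megakaryocyte genes. With so few regions and no error per library, these ranges are no sign of stability. No median changed sign. With the gene body alone, 9 regions were higher and 3 lower, at 8 genes. Windows of 10 kb gave 4 lower regions and those of 50 kb gave 12. Keeping regions whose nearest coding start site was that of a listed gene gave 11 higher and 4 lower. Centring on the median of all listed regions left a median change of 0.14. One region per gene, that with the largest change, gave 9 higher and 4 lower, and leaving out chromosome 16 gave 10 higher. These values move by construction, since each setting subtracts a value or keeps other regions.

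No paired analysis was possible because only means over the libraries of a group were given, with the replicate numbers of the labels lost. No replicate was left out either. The Fech change rests on a dKO mean at the level of 3 reads per library, so its size is uncertain.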

Other observations

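The 10 regions of the wider lists with the largest absolute change, chosen after their values were seen, all lay more than 1 kb from a start site of their gene, and 5 were higher and 5 lower in dKO. Among the erythroid genes, Gfi1b, which encodes a repressor needed in both lineages, had a region at 7.85 in dKO against 4.11 in WT, for which Gtf3c5 has the nearest coding start site. A region at Steap3, the gene of an iron reductase, had 4.09 against 0.49. Its WT mean was under the level of 3 reads per library, and with that level in its place it was 6.30-fold higher. Uros, which encodes an enzyme of haem synthesis, had 2 lower regions, at 2.56 against 5.55 within the gene and at 1.66 against 5.15 in the neighbouring Dhx32. A lower region near Dmtn, at 3.50 against 6.71, lay in Fam160b2. The lower region near the α-globin gene Hba-a2, at 2.56 against 5.15, is the one given above as nearest to Hba-a1.

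Among the megakaryocyte genes, Ptgs1, the cyclooxygenase gene of platelets, had a region at 4.35 against 1.33. With its WT mean likewise set to 3 reads per library, it was 7.54-fold higher. Higher regions stood at Fyb, at 7.28 against 4.65, and upstream of Nbeal2, which is needed for platelet α-granules, at 5.31 against 2.75. The latter lay in Ccdc12, 542 bp from a start site of that gene. Gnaz had a lower region, which also overlaps Rsph14, at 2.18 against 5.12.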
